A study of Bos taurus and Bubalus bubalis with 9 samples.

Results

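The circular RNAs (circRNAs) described here come from genes of the ubiquitin system. They are the rows of the buffalo and cattle circRNA tables whose host symbol begins with UBE2, UBE3, UBE4, UBR, USP, CUL, FBXO, FBXL, FBXW, HECTD, HERC, NEDD4, SMURF, WWP or RNF, leaving out the hosts UBE2D1, UBE3A, RNF111 and FBXW7. Of 24221 different junctions in both tables, 761 met the rule, and of 5280 host genes, 124 did. The rule uses names and no measured value. A few hosts share the name and not the function: USP6NL is a GTPase-activating protein, USPL1 a SUMO protease and USP39 a splicing factor. The rows named USP9Y lie on chromosome X, where the related USP9X is found, and which of these copies gave the reads was not tested.

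The study compared the transcriptomes of Xinyang buffalo, whose samples are labelled as low in intramuscular fat, and of Nanyang cattle, labelled as high. The animals of both breeds were castrated and fattened and were slaughtered at 30 months of age. Longissimus dorsi muscle and back subcutaneous fat were taken, and 9 libraries were used here, 3 of them from buffalo muscle, 3 from the muscle of cattle and 3 from their adipose tissue. The growth notes name 3 cattle for the 6 cattle libraries, so both tissues would come from the same animals, but no label says which muscle library goes with which adipose library. Species, breed and farm cannot be told apart from the fat label.

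Ubiquitin is passed from an activating enzyme to a conjugating enzyme (E2) and from there, with the help of a ligase (E3), to a substrate protein. HECT ligases carry the ubiquitin themselves, RING and U-box ligases bring the loaded E2 to the substrate, cullins are the scaffolds of ligases that use F-box proteins and other receptors to choose substrates, and deubiquitinases of the USP family remove ubiquitin again. In skeletal muscle this system marks contractile and signalling proteins for the proteasome and is known for its part in muscle wasting. A circRNA forms when the end of an exon is joined to the start of the same or an upstream exon of the same transcript, and it is counted by the reads that cross this back-splice junction.

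Values are RPM, the reads at a junction per 1000000 reads of the library, from which the whole reads were recovered. The libraries held 4472 to 6122 junction reads in buffalo muscle, 15440 to 27141 in cattle muscle and 12042 to 21053 in cattle adipose tissue, and between 33.7% and 61.9% of the junctions found in a library rested on 1 read. A group of 3 libraries with no read at a junction still allows a level of up to 0.0158 RPM in buffalo muscle, 0.0259 RPM in cattle muscle and 0.0266 RPM in cattle adipose tissue (3 reads over the group, counting error only). The muscle label was matched by the hosts of muscle structure: 13 such genes listed as markers gave 918 to 1412 reads in the cattle muscle libraries and 0, 1 and 0 reads in the adipose libraries. Among 12 adipocyte markers, ADIPOQ, LEP, LIPE, FASN and CIDEC had no junction read in adipose tissue, and the list gave 48, 70 and 57 reads there against 7, 6 and 3 in cattle muscle. How far these cell types carry the differences given below was not tested. In whole tissue, fewer cells of a type and less RNA per cell cannot be told apart.

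The reads of these hosts were 152, 189 and 143 in the buffalo muscle libraries, 498, 820 and 661 in cattle muscle and 422, 707 and 430 in cattle adipose tissue. As a share of all junction reads these were 2.87% to 3.20% in buffalo muscle, 3.02% to 3.23% in cattle muscle and 3.04% to 3.50% in adipose tissue, and these ranges overlapped. This evenness holds only without the 4 hosts that the rule leaves out, which had 997, 1792 and 1641 reads in cattle muscle, 104, 220 and 91 in adipose tissue and 15, 32 and 9 in buffalo muscle. With them the shares were 9.62% to 10.5% in cattle muscle, 3.68% to 4.40% in adipose tissue and 3.15% to 3.61% in buffalo muscle. At least 1 read was found for 180 of the 379 buffalo rows in buffalo muscle, and for 373 and 354 of the 571 cattle rows in cattle muscle and adipose tissue. Of the cattle rows, 156 had reads in both tissues, 217 in muscle and not in adipose tissue, and 198 in adipose tissue and not in muscle. These were 27.3%, 38.0% and 34.7% of the rows, close to the 25.4%, 39.3% and 35.3% over all cattle circRNAs. The loops were mostly exonic. Exon-type junctions carried 98.6%, 96.9% and 95.6% of the reads in buffalo muscle, cattle muscle and adipose tissue, where over all circRNAs the shares were 78.6%, 84.3% and 88.5%. Counted as distinct junctions the shares were closer, 96.1%, 91.2% and 90.4% against 88.8%, 87.3% and 88.6%. Single junctions held up to 1941, 2881 and 593 of all reads, which weighs on the read shares. A rule on host symbols also keeps no intergenic junction, and these made up 2.43%, 2.08% and 1.54% of all junctions. Over junctions of every type, the median genomic span of these hosts' loops was 10733, 10137 and 10561 bp, against 9032, 9366.5 and 10543 bp over all circRNAs.

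By role, the 34 USP hosts held the most junctions, 273, followed by 17 HECT hosts with 202, 33 RING, U-box and N-recognin hosts with 179, 27 F-box hosts with 67, 8 E2 hosts with 21 and 5 cullins with 19. USP hosts took 24.5% to 39.5% of the group's reads in the buffalo libraries, 39.6% to 40.4% in cattle muscle and 35.6% to 41.6% in adipose tissue. HECT hosts took 18.4% to 28.0%, 26.2% to 28.5% and 24.6% to 27.7%. The E2 share was 4.39% to 5.73% in cattle muscle and at least 6.40% in every adipose library, so the cattle tissues did not overlap, while buffalo muscle had 3.29% to 9.09%. UBE2D3 alone supplied 32 of 100 E2 reads in cattle muscle and 88 of 123 in adipose tissue. Of single hosts, HERC2, a giant ligase of DNA repair, had the most junctions, 44, while USP25 had 38, USP34 33, the N-recognin-like UBR3 30, USP40 26, UBE3C 24, HERC1 23 and UBR2 22. HERC2 had 4, 7 and 9 reads in buffalo muscle, 12, 24 and 11 in cattle muscle and 9, 14 and 16 in adipose tissue, so that its loops together gave fewer reads in each group than the leading junction of USP3.

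The comparison of cattle muscle with cattle adipose tissue shows which loops differ between the tissues that the study sequenced in place of intramuscular fat. It was tested by limma on log2(RPM + 1), after leaving out circRNAs that reached 2 reads in fewer than 3 cattle libraries, and p-values were adjusted by Benjamini-Hochberg over all circRNAs kept. The added 1 RPM makes these log2 differences much smaller than the fold of the mean RPM, which is given beside the differences that the results turn on. Of 66 ubiquitin system junctions that passed the filter, 5 were higher in cattle muscle (7.58%), where 3.08% of the 1917 junctions tested were. They came from UBR4, USP13 with a pair of junctions, USP45 and HERC1. Each of the 5 had at least 2 reads in all 3 muscle libraries and in at most 2 adipose libraries, so each met the filter through the tissue where it is high, and their share is a description. None was higher in adipose tissue, where 0.156% of all tested junctions were. At an unadjusted limma p under 0.05 there were 13 higher in muscle (19.7%) and 4 higher in adipose tissue (6.06%), against 12.6% and 4.96% of all tested junctions. The edgeR test on recovered reads called 5 (7.58%) and 1 (1.52%), against 7.15% and 1.36% of all. DESeq2 gave 47 of them an adjusted p and called 4 (8.51%) and 1 (2.13%), against 6.55% and 1.32% of 1359. Of the 5 limma calls, edgeR and DESeq2 made 3 each, the UBR4 and USP13 junctions, and neither called USP45 or HERC1. The difference was above 0 for 39 of the 66 (59.1%) and for 53.4% of all tested junctions, with medians of 0.03 and 0.01. The other 505 cattle rows had too few reads to be tested. The UBE2D3 and USP8 junctions given below met the filter through adipose tissue, where they are high.

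**Figure D1:**
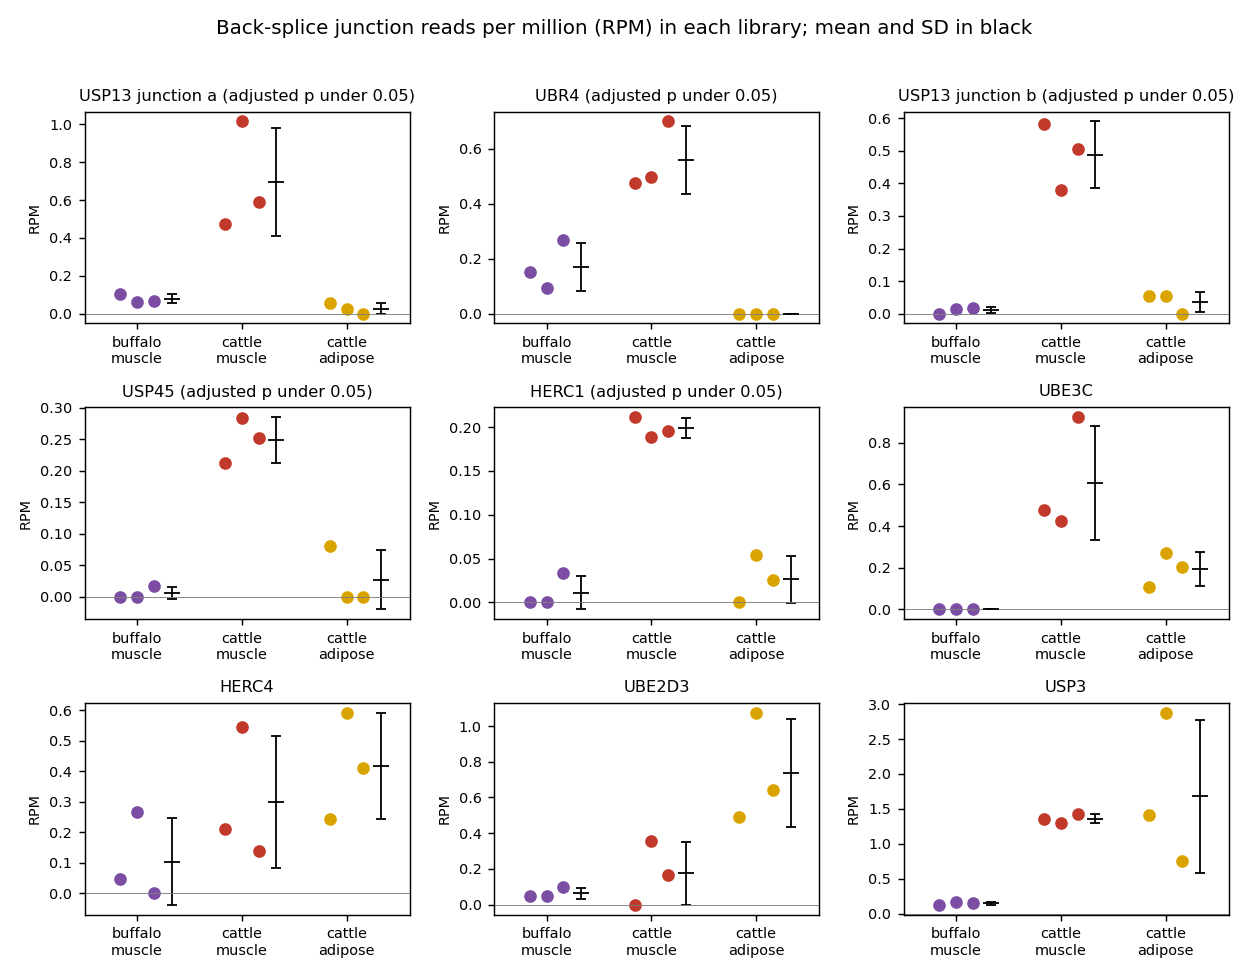
RPM of 9 junctions (vertical axes, RPM on a linear scale that differs between panels) in the 3 libraries of each group. Coloured points are libraries and black marks are the mean and SD. The 5 junctions called by limma are marked in their titles, and for each of them the 3 cattle muscle libraries lie above the 3 adipose libraries. The USP3 and HERC4 panels show overlapping tissues.

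UBR4 is a very large N-recognin, a ligase that binds proteins by their destabilising amino-terminal residue. Its exonic junction at chr2:134082645-134085388 (UMD3.1, plus strand) had 18, 21 and 25 reads in cattle muscle and none in the 3 adipose libraries. Buffalo muscle had 10, 6 and 16 reads, so all 6 muscle libraries carried the loop. The means were 0.558 ± 0.124 RPM (SD, n = 3) in cattle muscle and 0.171 ± 0.0877 RPM in buffalo muscle. Against the level that 3 reads over the adipose group would give, cattle muscle was at least 21.0-fold higher, and the log2 difference was 0.64 ± 0.06 (SE, limma adjusted p = 0.00358). Over the 13 alternatives tried the adjusted p reached 0.0341 at most, and without the filter, which this junction met through muscle alone, it was 0.00947. The other 11 UBR4 junctions were minor, with 4 reads in the second adipose library at chr2:134149039-134150211 as the best supported of them in adipose tissue.

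USP13 is a deubiquitinase of the USP family. Its junction at chr1:87974292-87979067 (minus strand) had 18, 43 and 21 reads in cattle muscle and 2, 1 and 0 in adipose tissue. Buffalo muscle had 7, 4 and 4 reads. The cattle tissues did not overlap, with means of 0.694 ± 0.286 and 0.0271 ± 0.0271 RPM, a ratio of 25.6 (95% counting interval 8.80 to 132). The log2 difference was 0.71 ± 0.11 (SE, limma adjusted p = 0.0197). This call was lost without cattle muscle library 3 (limma adjusted p = 0.0801), adipose library 1 (0.072), 2 (0.0622) or 3 (0.124) and without a filter on low values (0.12), while the log2 difference stayed between 0.69 and 0.75 in these fits. The adjacent junction at chr1:87976414-87979067 shares the upstream end and had 22, 16 and 18 reads in cattle muscle and 2, 2 and 0 in adipose tissue. It was 13.6 times as high in cattle muscle by mean RPM, with a log2 difference of 0.52 ± 0.06 (SE, limma adjusted p = 0.00725), and missed the threshold only without adipose library 3 among the alternatives (adjusted p = 0.0566). Buffalo muscle had 0, 1 and 1 reads at this second junction.

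The reads of USP13 lay mostly at a few of its loops in both muscles. In buffalo muscle, 15 of its 38 reads lay at chr1:87974292-87979067 and another 15 at chr1:87974292-87986601, with 2 at chr1:87976414-87979067. In cattle muscle, 82, 16 and 56 of 224 reads lay at these junctions, and 26 more at chr1:87974292-87976580, where buffalo muscle and cattle adipose tissue had none. A junction far upstream at chr1:88025428-88050960 had 3, 5 and 6 reads in cattle muscle, 6.25% of the USP13 reads there, and none elsewhere. Buffalo muscle and adipose tissue had only 38 and 14 USP13 reads in all, and whether this loop is missing there was not tested. The end at 87974292 was the most shared, used by 10 of the 19 USP13 junctions and by 92.1% of the reads in buffalo muscle and 64.7% in cattle muscle. Whether these shares differ between the species was not tested, since the tables of the species were made separately and buffalo reads were aligned to the cattle genome.

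**Figure D2:**
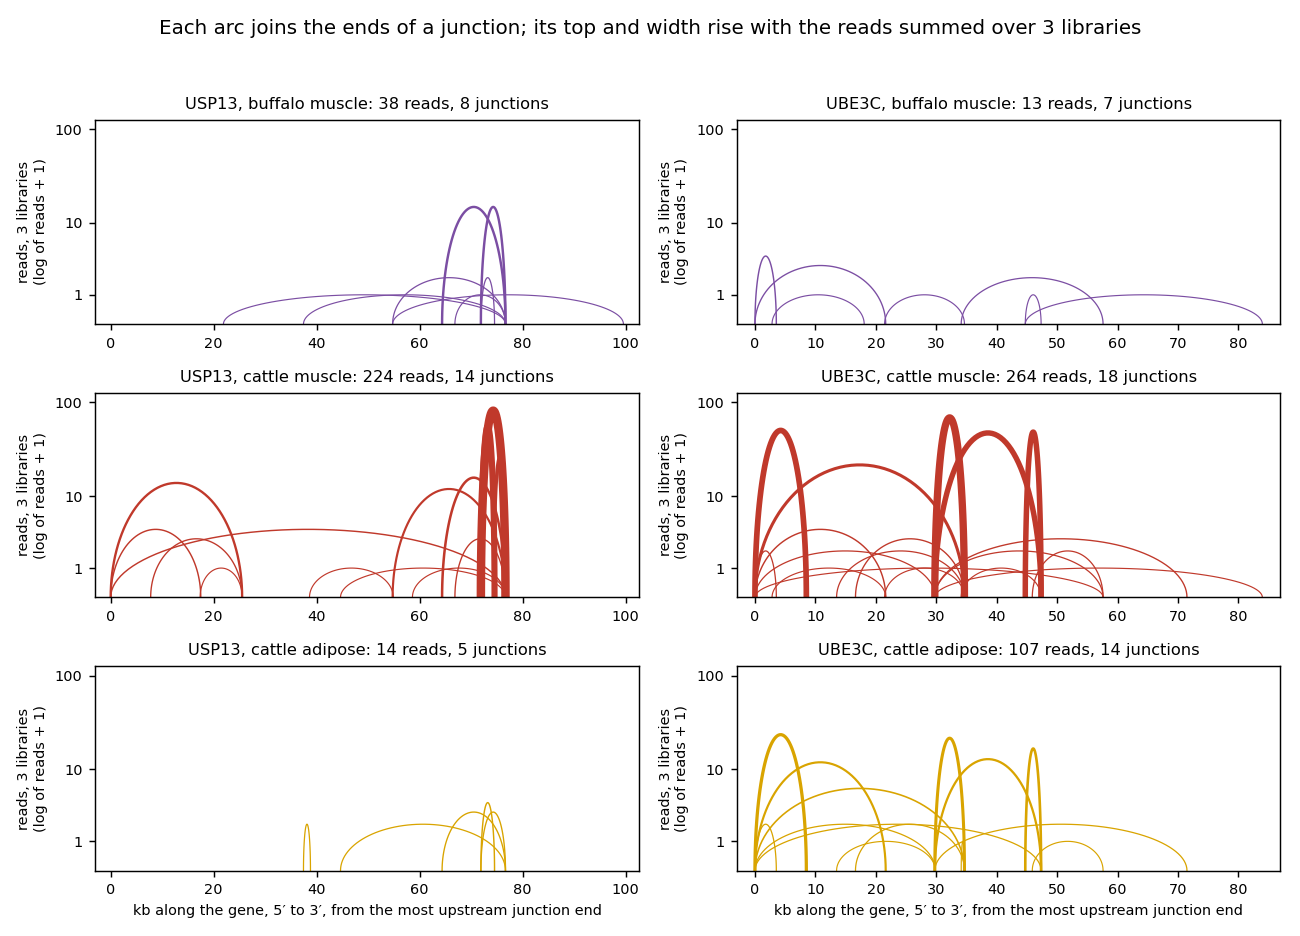
Junctions of USP13 (left) and UBE3C (right) in each group. The horizontal axis is the distance in kb along the gene in the direction of transcription, each arc joins the ends of a junction, and its height and width rise with the reads summed over 3 libraries (vertical axis, log of reads + 1). In USP13 the reads gather near the downstream end in both muscles; in UBE3C the 5 leading loops of cattle muscle hold 239 of 264 reads there, 82 of 107 in adipose tissue and 1 of 13 in buffalo muscle.

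The junctions of USP45 and HERC1 were called with fewer reads, and 1 and 2 of the 13 alternatives called them. USP45, a deubiquitinase of the DNA repair nuclease subunit ERCC1, had 8, 12 and 9 reads in cattle muscle at chr9:50982896-50987662 (plus strand) and 3, 0 and 0 in adipose tissue. The ratio of the means was 9.18 (95% counting interval 2.92 to 48.3) and the log2 difference 0.28 ± 0.05 (SE, limma adjusted p = 0.0402), and no fit that left out a library called it (adjusted p from 0.0615 to 0.157). HERC1, a giant ligase with RCC1-like domains, had 8, 8 and 7 reads in cattle muscle at chr10:46416540-46417628 (plus strand) and 0, 2 and 1 in adipose tissue. The ratio was 7.51 (95% counting interval 2.26 to 38.9) and the log2 difference 0.22 ± 0.05 (SE, limma adjusted p = 0.0493), again in no fit that left out a library (0.0809 to 0.157). Both had at most 2 reads in any buffalo library.

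On the log2(RPM + 1) scale the largest difference toward adipose tissue among the 66 junctions was that of UBE2D3, an E2 enzyme of the UBCH5 family that serves many ligases. At chr7:52444892-52454969 (plus strand) it had 18, 40 and 25 reads in adipose tissue, 0, 15 and 6 in cattle muscle and 3, 3 and 6 in buffalo muscle. The cattle tissues did not overlap, yet the muscle libraries ranged widely, and the mean was 4.22 times as high in adipose tissue. The log2 difference of -0.56 ± 0.15 (SE) did not pass limma (adjusted p = 0.112), although edgeR (adjusted p = 0.0111), DESeq2 (0.0422) and limma per 10000 junction reads (0.0291) called it. With no read in the first muscle library, the junction met the filter through adipose tissue, where it is high. Without a filter its limma adjusted p was 0.508. The endosomal deubiquitinase USP8 had 4, 8 and 7 reads in adipose tissue at chr10:60000707-60013824 (minus strand) and 0, 1 and 0 in cattle muscle. By mean RPM its ratio of 21.3 (95% counting interval 3.1 to 813) was the wider of both, on few reads, with a log2 difference of -0.21 ± 0.05 (SE, limma adjusted p = 0.0861). A sister loop of USP8 that ends at the same position, chr10:59989573-60013824, had 4, 4 and 3 reads in cattle muscle and 4, 3 and 6 in adipose tissue, with no gap between the tissues.

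Among the junctions that the name rule keeps, the most abundant in both cattle tissues showed no such gap. USP3, a deubiquitinase of histones H2A and H2B, had 51, 55 and 51 reads at chr10:46539106-46543226 (minus strand) in cattle muscle and 52, 107 and 29 in adipose tissue. Its mean was 1.36 ± 0.0640 RPM in cattle muscle and 1.68 ± 1.09 RPM in adipose tissue, and the log2 difference was -0.11 ± 0.26 (SE, limma adjusted p = 0.874). The adipose libraries spread on both sides of the muscle libraries, and without adipose library 2 the difference was 0.20. That library also held the most reads of fibroblast and matrix marker hosts, 393 against 105 and 117 in the other adipose libraries, and the part of these cells in the value was not tested. Buffalo muscle had 8, 11 and 9 reads. Next in adipose tissue came UBE2D3 and then HERC4, a smaller ligase of the HERC family, with 9, 22 and 16 reads at chr28:24662381-24683148 against 8, 23 and 5 in cattle muscle. In buffalo muscle HERC4 had 3, 17 and 0 reads there, so that its place among the 3 highest loops of that group rests on library 2.

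Summing the reads of all junctions of a host gave 1837 hosts that passed the same filter, 55 of them of the ubiquitin system. In this fit 2 hosts were higher in muscle (3.64%), USP13 and UBR4, against 2.94% of all hosts tested, and 2 were higher in adipose tissue (3.64%), HERC6 and USP8, against 0.871%. At an unadjusted limma p under 0.05 there were 7 (12.7%) and 4 (7.27%), against 9.85% and 5.82% of all hosts. In muscle, edgeR and DESeq2 each called 3 (5.45%), against 6.7% and 4.84% of all hosts, and in adipose tissue they called 1 (1.82%) and 0, against 2.12% and 1.52%. The difference was above 0 for 35 of the 55 (63.6%) and for 50.1% of all hosts, with medians of 0.03 and 0.00. Scaled to junction reads in place of library totals, it was above 0 for 25 (45.5%), against 40.2% of all hosts, so the balance of directions depends on the scaling. The medians by role were -0.20 for 2 E2 hosts, 0.03 for 7 F-box hosts, 0.05 for 11 HECT hosts, -0.01 for 12 RING, U-box and N-recognin hosts, 0.03 for 21 USP hosts and 0.06 for 2 cullins.

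**Figure D3:**
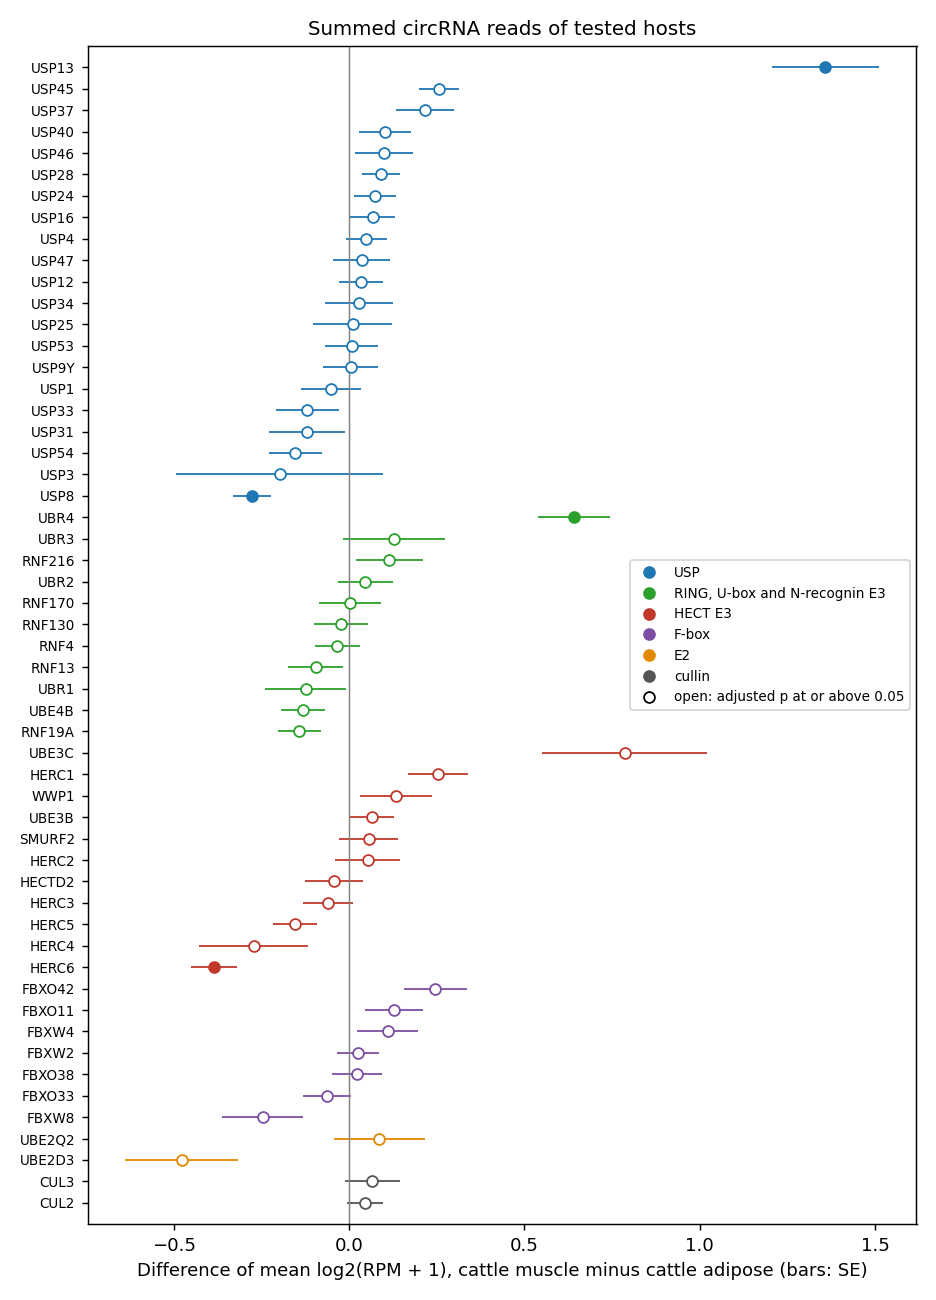
Difference of the mean log2(RPM + 1) of tested hosts between cattle muscle and cattle adipose tissue (horizontal axis, bars are the SE), grouped by role. Filled points passed limma's adjusted p of 0.05, which are USP13 and UBR4 on the muscle side and HERC6 and USP8 on the adipose side. UBE3C lies far to the muscle side with a wide SE.

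USP13 had 47, 99 and 78 reads over its junctions in cattle muscle, 4, 8 and 2 in adipose tissue and 16, 13 and 9 in buffalo muscle. It ranked 24th by mean RPM among the hosts of cattle muscle and 810th in adipose tissue. The mean was 15.4 times as high in muscle, with a log2 difference of 1.36 ± 0.15 (SE, limma adjusted p = 0.00672), and all 13 alternatives called it. UBR4 had 20, 23 and 31 reads in cattle muscle, 0, 6 and 0 in adipose tissue and 11, 9 and 17 in buffalo muscle. The mean was 12.0 times as high in cattle muscle as in adipose tissue. The log2 difference was 0.64 ± 0.10 (SE, limma adjusted p = 0.0237), lost without cattle muscle library 2 (adjusted p = 0.0546) or 3 (0.058) and without adipose library 1 (0.105) or 3 (0.0968). Like the junction, the host met the filter through muscle alone, and without a filter the call was lost too (limma adjusted p = 0.0806).

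HERC6 belongs with HERC5 to the interferon-induced ligases of its family. Its 21 junctions gave 22, 20 and 25 reads in adipose tissue, 10, 6 and 9 in cattle muscle and none in buffalo muscle. Adipose tissue was 2.70 times as high, with a log2 difference of -0.39 ± 0.07 (SE, limma adjusted p = 0.0265). No single loop carried it, since the best supported, at chr6:37758674-37770158 (minus strand), had 7, 2 and 4 reads in adipose tissue and 4, 1 and 2 in muscle. The call was lost without cattle muscle library 2 (adjusted p = 0.0617) or 3 (0.0851) and without adipose library 1 (0.105) or 3 (0.104), and edgeR (0.0949), DESeq2 (0.175), scaling to junction reads (0.0724) and a pseudocount of 0.1 RPM (0.101) did not make it. HERC5, the main ligase of the ubiquitin-like protein ISG15 in humans, had 2, 7 and 5 reads in adipose tissue and 0, 1 and 0 in muscle, with a limma adjusted p of 0.306. Scaled per 10000 junction reads, its limma adjusted p was 0.0422, but it met the filter through adipose tissue alone, where it is high. USP8 had 11, 14 and 13 reads in adipose tissue and 4, 5 and 3 in cattle muscle, a ratio of 3.28 with a log2 difference of -0.28 ± 0.05 (SE, limma adjusted p = 0.041). The tissues of USP8 did not overlap, but 2 of the 13 alternatives called it, and none that left out a library did (adjusted p from 0.0932 to 0.133).

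UBE3C, a HECT ligase that works at the proteasome, had the most reads of any of these hosts in cattle muscle, 63, 102 and 99, and ranked 19th among all hosts there. Adipose tissue had 22, 64 and 21 reads, and the second adipose library reached the lowest muscle library. The mean was 2.40 times as high in muscle, and the log2 difference was 0.79 ± 0.24 (SE, limma adjusted p = 0.153). Without adipose library 2 it was 1.05 (adjusted p = 0.0237), and edgeR (0.0096) and DESeq2 (0.0169) called it with all libraries. Its leading junction at chr4:119300725-119305630 (plus strand) had 18, 18 and 33 reads in cattle muscle, 4, 10 and 8 in adipose tissue and none in buffalo muscle. In buffalo muscle UBE3C had 2, 3 and 8 reads, and of these 1 lay at the 5 junctions that lead in cattle muscle.

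FBXO32, the F-box protein also known as atrogin-1 and best known from muscle wasting, had few junction reads. It had 0, 0 and 1 reads in buffalo muscle, 4, 2 and 0 in cattle muscle and 0, 1 and 0 in adipose tissue, while its mRNA stood at 204 ± 82.0 FPKM (SD, n = 3) in buffalo muscle. That mean was the highest of the 124 hosts through library 3, without which it was 159 FPKM and ranked 4th. WWP1, a HECT ligase of the same family as NEDD4, had 2, 4 and 1 reads in buffalo muscle, 1, 7 and 11 in cattle muscle and 1, 0 and 6 in adipose tissue, with 202 ± 15.4 FPKM of mRNA. NEDD4, which binds membrane proteins through its WW domains, had 8, 6 and 6 reads in buffalo muscle, 5, 2 and 1 in cattle muscle and 0, 0 and 1 in adipose tissue, and NEDD4L had 0, 1 and 5, then 1, 9 and 0, then 0, 1 and 0. Of the ligases of TGF-beta receptors and their signal carriers, SMURF2 had 0, 4 and 1 reads in buffalo muscle, 5, 11 and 6 in cattle muscle and 8, 7 and 1 in adipose tissue, and SMURF1 had 1 read in all. The cullin scaffold CUL3 had 0, 2 and 0 reads, then 3, 4 and 9, then 4, 5 and 1. FBXO40, FBXO30, CUL1 and USP19 had no row under these symbols in the circRNA tables of either species.

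Other hosts known in muscle or in signalling were measured in both cattle tissues, and their differences did not pass the test. UBR2, an N-recognin, had 13, 21 and 9 reads in cattle muscle and 10, 13 and 13 in adipose tissue (limma adjusted p = 0.829). The deubiquitinase USP25 had 7, 25 and 15 against 16, 11 and 16 (limma adjusted p = 0.979). UBE4B, a U-box ligase that lengthens ubiquitin chains, had 2, 3 and 0 against 3, 6 and 7 (limma adjusted p = 0.385). HERC1 as a whole had 15, 21 and 19 against 8, 14 and 5, which did not overlap (limma adjusted p = 0.210). The proteasome-bound USP14, with 1, 0 and 1 against 0, 2 and 0, was below the filter.

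In the remaining role groups the leading hosts were UBE2D3 and UBE2Q2 among E2 enzymes, FBXW4 and FBXW8 among F-box proteins and UBR4 and RNF216 among RING-type ligases. UBE2G1, an E2 enzyme, had 11, 1 and 5 reads in cattle muscle, 2, 6 and 2 in buffalo muscle and none in adipose tissue. All but 1 of the 17 cattle muscle reads lay at chr19:25420745-25436824 (minus strand), but the junction had at least 2 reads in too few cattle libraries to be tested. RNF216, a ligase of the RING-between-RING type, had 16, 20 and 23 reads in cattle muscle and 13, 21 and 11 in adipose tissue (limma adjusted p = 0.677). FBXW8, a substrate receptor that pairs with CUL7, had 1, 17 and 8 reads in cattle muscle and 13, 19 and 17 in adipose tissue (limma adjusted p = 0.383). FBXW4 had 14, 16 and 14 reads in cattle muscle and 7, 17 and 8 in adipose tissue, with overlapping tissues (limma adjusted p = 0.659).

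A handful of loops were found everywhere. Junctions at identical coordinates with a read in all 9 libraries numbered 5 here and 132 over all circRNAs. They were the USP3 junction above, a pair of FBXW4 junctions and 1 each of UBR2 and FBXO11, an F-box receptor of the transcription factor BCL6. The FBXW4 junction at chr26:22290544-22294470 (minus strand) had 5, 2 and 1 reads in buffalo muscle, 11, 12 and 12 in cattle muscle and 4, 10 and 5 in adipose tissue. The other FBXW4 junction, chr26:22284661-22294470, had 1, 1 and 3, then 3, 4 and 2, then 2, 6 and 2 reads. UBR2 had 5, 7 and 5, then 6, 6 and 4, then 1, 4 and 5 reads at chr23:16344530-16345293 (plus strand). FBXO11 had 4, 2 and 2, then 8, 8 and 5, then 2, 3 and 1 reads at chr11:30017161-30018062 (minus strand). No library had more than 12 reads at any of these 4 junctions.

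Buffalo muscle was set beside cattle muscle to see which loops the species share. Of the 180 junctions found in buffalo muscle, 89 (49.4%) were also found in cattle muscle at identical coordinates, which is 23.9% of the 373 there. Over all circRNAs the shares were 47.1% and 18.6%. Of the 83 with at least 2 reads in buffalo muscle, 50 were shared (60.2%, against 59.9% over all circRNAs).

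The cattle libraries held more junction reads from smaller libraries, so host sums of the species are given per 10000 junction reads, side by side and without a test. On this scale the muscle marker hosts moved too, with 14.1% to 16.3% of the junction reads in buffalo muscle and 5.18% to 5.95% in cattle muscle, and their part in the values given here was not tested. Of 44 hosts with at least 2 reads in at least 3 of the 6 muscle libraries, 6 had all buffalo libraries above all cattle libraries (13.6%), as had 10.3% of all 1322 such hosts. Among them were NEDD4, FBXW4 and the N-recognin hosts UBR1, UBR2 and UBR4. NEDD4 had 8, 6 and 6 reads in buffalo muscle and 5, 2 and 1 in cattle muscle, and UBR1 had 8, 6 and 4 against 8, 1 and 12. Both thus met the filter through buffalo muscle, where they are high, and the share is a description. A further 10 had all buffalo libraries below (22.7%), against 26.2% of all hosts, which were CUL2, HERC1, HERC6, RNF216, UBE3C, USP13, USP24, USP28, USP3 and USP37. Of these 10, CUL2, HERC6, USP24 and USP28 had no read in buffalo muscle, and RNF216 and USP37 had 2 reads in 1 buffalo library only, so these 6 passed the filter through cattle muscle alone. No read over the group still allows 1.89 per 10000 junction reads (3 reads, counting error only), above the cattle muscle means of CUL2, 1.47, and USP28, 1.57, so a lower level of CUL2 and USP28 was not detectable at this depth. NEDD4 stood at 15.1, 9.80 and 13.4 per 10000 junction reads in buffalo muscle and at 3.24, 0.737 and 0.457 in cattle muscle. UBR4 stood at 20.8, 14.7 and 38.0 against 13.0, 8.47 and 14.2. UBE3C showed the widest gap in the other direction, with 3.78, 4.90 and 17.9 against 40.8, 37.6 and 45.2. USP13 was high in both, at 30.2, 21.2 and 20.1 against 30.4, 36.5 and 35.6, and its groups nearly touched. FBXL2, an F-box receptor, had 2, 3 and 1 reads at a single junction, chr22:7682929-7689399, in buffalo muscle and no row in the cattle table.

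**Figure D4:**
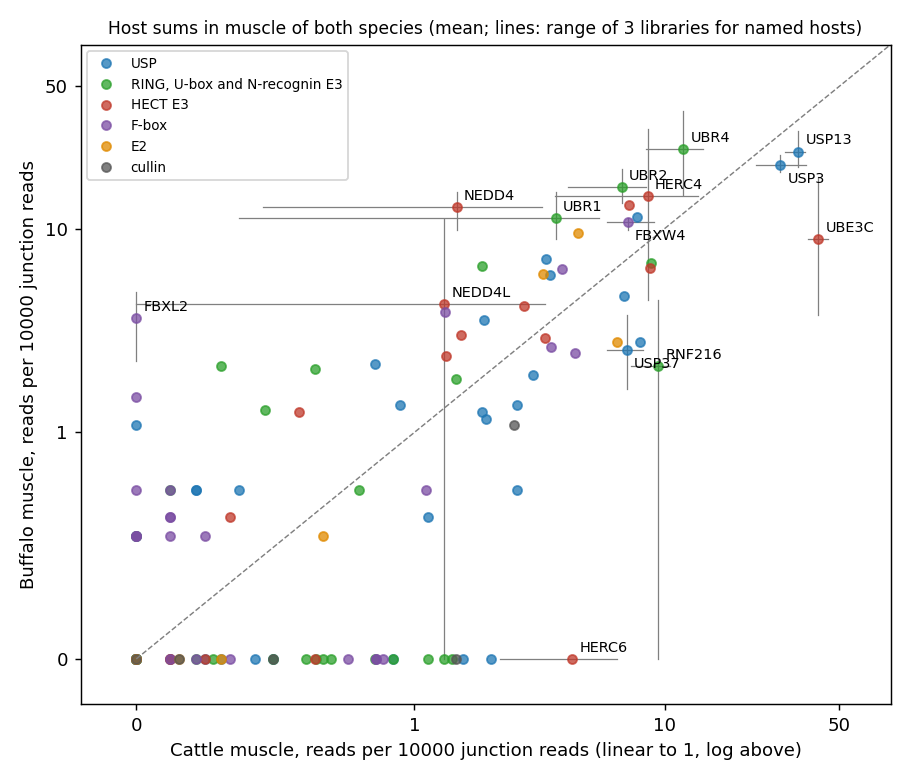
Host sums in cattle muscle (horizontal axis) and buffalo muscle (vertical axis) as mean reads per 10000 junction reads, on axes that are linear to 1 and logarithmic above; grey lines are the range of the 3 libraries for named hosts and the dashed line marks equal values. NEDD4, UBR2 and UBR4 lie above the line, and UBE3C, RNF216 and HERC6 lie below it.

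The mRNA of all 124 hosts was paired with a transcript in the buffalo table. Only transcripts named in circRNA rows were paired, 5799 of 19917, so any other transcript of a host is missed. The hosts had a median of 13.0 FPKM in buffalo muscle, against 10.2 FPKM over the 3399 hosts of the buffalo circRNA table with a paired mRNA. These sets are unlike, since only 92 of the 124 hosts have a row in that table. The 69 hosts with a junction read had a median of 15.9 FPKM and the 55 without one 9.23 FPKM. Spearman's rho between mean FPKM and mean summed RPM was 0.326 over the 124 hosts and 0.263 over the 3399 of the buffalo circRNA table. Both are across genes that share libraries and depth, and members without a row in that table were taken as having no read. USP13 was high on both scales, with 105 ± 8.36 FPKM. USP3, behind USP13 and UBR4 by circRNA, had 2.90 FPKM at its only paired transcript. RNF10 had 188 ± 12.7 FPKM and no junction read in buffalo muscle, which allows up to 0.0158 RPM.

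**Figure D5:**
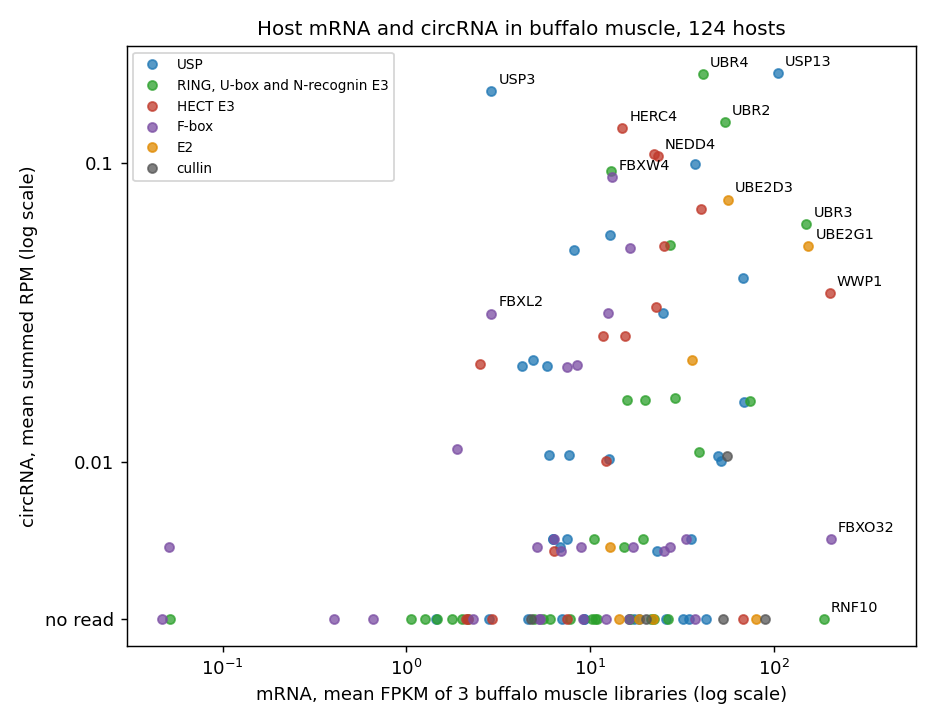
Mean mRNA level (horizontal axis, FPKM, log scale) and mean summed circRNA level (vertical axis, RPM, log scale, hosts with no read at the bottom) of the 124 hosts in 3 buffalo muscle libraries. USP13 and UBR4 lie at the top right, USP3 has much circRNA for the low FPKM of its paired transcript, and FBXO32 and RNF10 have little or none for their high FPKM.

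Genes of the pathway outside the name rule were counted in the same host fit. Of 111 listed genes, among them ubiquitin-activating enzymes, other ligases, proteasome subunits and SUMO enzymes, 72 had a row in the cattle table and 38 were tested. In muscle 2 were higher by limma (5.26%, against 2.94% of all hosts), the SUMO protease SENP6 and the SUMO ligase PIAS2, and none was higher in adipose tissue, against 0.871% of all hosts. In adipose tissue no listed gene had an unadjusted limma p under 0.05, against 5.82% of all hosts. Under the alternatives 1 had without a filter, 1 per 10000 junction reads, 2 without adipose library 1 and 1 without cattle muscle library 2. Neither edgeR nor DESeq2 called any higher in adipose tissue, against 2.12% and 1.52% of all hosts. In muscle each called 4 (10.5%), against 6.7% and 4.84% of all hosts, adding DCAF6 and DCUN1D1. DCUN1D1 had no read in adipose tissue and met the filter through muscle alone. SENP6 had 141, 176 and 112 reads in cattle muscle and 26, 65 and 16 in adipose tissue, a ratio of 3.85 with a log2 difference of 1.31 ± 0.23 (SE, limma adjusted p = 0.0318). PIAS2 had 21, 46 and 33 reads against 9, 8 and 1, a ratio of 5.29 with a log2 difference of 0.67 ± 0.13 (SE, limma adjusted p = 0.0367). With 1 read in the last adipose library, PIAS2 met the filter through muscle, where it is high. The share of listed genes called is therefore a description. Both act on SUMO, a protein related to ubiquitin, rather than on ubiquitin. Of 6 fits that left out a library, 1 called SENP6, without adipose library 2 (limma adjusted p = 0.00225, up to 0.122 in the others), and 1 called PIAS2, without cattle muscle library 1 (0.0171, up to 0.149). Neither was called without a filter or per 10000 junction reads (limma adjusted p = 0.06 and 0.0504 under that scaling). The large ligases HUWE1 and TRIP12 were well measured without passing the test: TRIP12 had 36, 58 and 56 reads in cattle muscle and 25, 60 and 45 in adipose tissue (limma adjusted p = 0.817).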

How the data were processed

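For both species the authors used Trim Galore, STAR alignment to UMD3.1, the cattle assembly, and Cufflinks 2.2.1. The labelled library kit as supplied selects poly(A) RNA, which circRNAs lack, and whether ribosomal RNA was depleted instead is not given in the sources used here. The circRNA tables deposited by the authors were read as RPM per junction, a unit not named in their headers, and all values were whole multiples of 1 read (tolerance 0.01). The circRNA caller is not given in the sources used here. Buffalo mRNA levels are FPKM of assembled transcripts as computed by the authors. Columns of other samples, 9 in number, were not used.

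Reads were summed per host symbol. Cattle muscle and adipose tissue were compared with limma 3.58.1 (R 4.3.3) on log2(RPM + 1), with edgeR 4.0.16 and DESeq2 1.42.0 on recovered reads, other pseudocounts, filters and scalings, a replicate block and libraries left out as alternatives. The call threshold was an adjusted p of 0.05. The fits were tested on simulated data, where limma with 1 RPM added recovered fewer of the changes than edgeR or limma with 0.1 RPM added, so a missed threshold does not show equal levels. Replicates of a group differed by more than sampling noise. The growth notes give 3 animals per species, taken here as the 3 replicates. Named are the 3 highest junctions of each group, called junctions and hosts, the 8 hosts with most junctions, junctions found in all 9 libraries, hosts with a textbook role and the highest host of each role. Other names were chosen after their values were seen, and a few hosts under the rule are not reported here. Members and lists were chosen with earlier results of these data known. Junction ends are printed as deposited.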

Additional observations from a re-analysis of the deposited data

How the results depend on the processing

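Directions of the called junctions and hosts were the same in all alternatives run, and their calls were less stable. Junctions called higher in cattle muscle numbered 5, but 3 without a filter, 3 with at least 5 reads in 3 libraries, and 1 to 4 when a library was left out (1 without cattle adipose library 3). Junctions called higher in adipose tissue numbered 0, but 1 with a pseudocount of 0.1 RPM, 2 per 10000 junction reads, and 1 each with edgeR and DESeq2. Hosts called higher in muscle numbered 2, but 1 without a filter and 1 to 3 when a library was left out. Hosts called higher in adipose tissue numbered 2, but 0 with a pseudocount of 0.1 RPM and with DESeq2, 1 with at least 5 reads in 3 libraries, 3 per 10000 junction reads, which were HERC5, UBE2D3 and USP8, 1 with edgeR, which was UBE2D3, and 0 to 1 when a library was left out. The cause was not tested. The log2 difference of the USP3 junction, -0.11, ranged from -0.37 to 0.20 when a library was left out, and it was 0.20 without adipose library 2.

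No source used here says that a replicate number marks the same animal in both tissues, so the libraries were not treated as paired. Same-numbered libraries deviated together with correlations of 0.238, 0.169 and -0.0156 over junctions, and those of other numbers with -0.219 to 0.0401, so libraries 1 and 2 correlated best with their own number and library 3 did not. With the replicate block, 3 junctions were called higher in muscle and 1, UBE2D3, higher in adipose tissue (limma adjusted p = 0.00471), and 2 hosts in each direction, on the adipose side HERC6 and UBE2D3 in place of HERC6 and USP8 (adjusted p = 0.0811).

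Scaling to junction reads moved the median log2 difference of all junctions from 0.01 to -0.14 and of all hosts from 0.00 to -0.23. With at least 2 reads over a group, 83, 233 and 223 junctions were counted in buffalo muscle, cattle muscle and adipose tissue, in place of 180, 373 and 354, and leaving out an adipose library gave 232 to 303. As a mean over libraries of the share of distinct junctions, the group made up 3.84% in buffalo muscle and 3.28% in cattle muscle. Without the host with most reads, its read share was 3.52% and 3.23%. Few reads per junction and 3 libraries per group limit the fits.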
